A study of Mus musculus with 12 samples.

Results

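The Wnt family was examined in the cerebral cortex of mice with a conditional knockout of the histone methyltransferase gene Nsd1 in the neural lineage. The group held 41 genes, chosen by symbol from the 34193 rows of the deposited table: 18 Wnt ligands, 10 Frizzled receptors, the co-receptors Lrp5 and Lrp6, 8 secreted antagonists, the R-spondins Rspo2 and Rspo3, and Axin2 as a readout of the pathway. All 41 were found, and 35 passed a mean of 10 normalised reads over the 12 libraries and were tested. The conditional knockout (cKO) mice carried Nsd1 flx/flx with Nestin-cre +/-, a transgene that recombines loxP sites in neural progenitors and hence in neurons and glia. Blood vessels, microglia and meninges come from other lineages. The control (ctrl) mice carried Nsd1 flx/flx without Cre (Nestin-cre -/-), so that the groups differ in the transgene as well as in Nsd1. Both were sampled at 8 weeks of age, with 6 libraries each, by sequencing of total RNA after removal of ribosomal RNA. The series title places NSD1, which methylates lysine 36 of histone H3, in the patterning of non-CG DNA methylation in neurons.

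Wnt proteins are lipid-modified secreted ligands that bind Frizzled receptors on neighbouring cells. With an Lrp5 or Lrp6 co-receptor, binding stabilises beta-catenin, which enters the nucleus and induces targets such as Axin2, whose product feeds back to limit the signal. Secreted frizzled-related proteins, Wif1 and Dickkopf proteins restrain the pathway, whereas R-spondins enhance it by sparing Frizzled receptors from degradation. In the brain Wnt signals act on progenitors, synapses and the endothelium of the blood-brain barrier.

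Reads assigned to genes numbered 14.6 to 27.0 M in the cKO and 10.5 to 21.1 M in the ctrl libraries, and 3 reads stood for 1.98 to 5.64 normalised reads depending on the library. Libraries 1 to 3 of each genotype had Y-linked reads and libraries 4 to 6 did not, apart from 3 reads in cKO library 6, and the main test carried a term for that split. Mitochondrial ribosomal RNA took 11.5% and 14.2% of the reads in ctrl libraries 5 and 4, and 1.46% to 6.00% in the other 10. Nsd1 itself averaged 3251 ± 299 normalised reads in the cKO and 4235 ± 850 in the ctrl (SD, n = 6 each), a log2 ratio of cKO over ctrl of -0.36 that did not pass the threshold of the test (limma adjusted p = 0.383). Here and in what follows the log2 ratio is the genotype effect in limma on log2(value + 1). For weakly expressed genes it can lie nearer to or further from 0 than the log2 of the ratio of means. Nsd1 values cover the whole gene, so any reads outside the deleted part are counted, and their share was not tested. All 11 markers of cortical neurons passed the filter, with summed levels of 172492 to 185509 normalised reads in the cKO and 174003 to 187656 in the ctrl.

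Of the 35 tested genes, 2 ligands rose in the cKO, Wnt10a and Wnt2b, and 1 receptor fell, Fzd9. The other 32 did not pass the test. The call was a Benjamini-Hochberg adjusted p under 0.05 in limma, adjusted over 14397 tested genes, of which 0.834% were called in all, 0.764% higher and 0.0695% lower in the cKO. The median log2 ratio of the 35 genes was 0.03, against -0.00069 for all tested genes, and 21 of the 35 lay above 0. An unadjusted p under 0.05 was found for 7 of the 35 (20.0%), against 9.73% of all tested genes. Of the 7, 5 were higher in the cKO, the direction of 4.61% of all genes, and 2 lower, that of 5.13%. The edgeR and DESeq2 tests on whole reads called the same 3 genes, where edgeR called 0.827% of all genes (0.750% higher, 0.0764% lower) and DESeq2 1.17% (0.993% higher, 0.181% lower). The authors' deposited table also gives an adjusted p under 0.05 to these 3 and to no other of the 40 members for which it lists one, against 0.906% of its genes, 0.784% higher and 0.122% lower.

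The promoters of Wnt2b and Fzd9, as called genes that moved in opposite directions, and of Axin2, as the pathway readout, are shown. No promoter of Wnt10a, the other called member, was available in the reference used. Capitals mark CG dinucleotides, and so not the non-CG sites named in the series title. CA dinucleotides on both strands number 28 for Wnt2b, 27 for Fzd9 and 29 for Axin2. Each promoter covers 250 bases before to 50 after the start of transcription, on the strand of the gene. The source is RefSeq for GRCm38.p6, a later build than the mm9 named in the submitters' notes. Wnt2b lies at chr3:104961660-104961959 on the minus strand, Fzd9 at chr5:135250998-135251297 on the minus strand and Axin2 at chr11:108920099-108920398 on the plus strand.
Wnt2b: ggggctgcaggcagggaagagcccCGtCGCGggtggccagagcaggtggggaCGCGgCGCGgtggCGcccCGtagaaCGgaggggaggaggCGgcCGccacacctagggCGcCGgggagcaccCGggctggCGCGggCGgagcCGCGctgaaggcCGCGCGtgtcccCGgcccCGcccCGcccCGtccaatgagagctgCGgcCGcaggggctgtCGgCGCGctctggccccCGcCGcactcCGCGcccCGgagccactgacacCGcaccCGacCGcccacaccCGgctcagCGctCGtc
Fzd9: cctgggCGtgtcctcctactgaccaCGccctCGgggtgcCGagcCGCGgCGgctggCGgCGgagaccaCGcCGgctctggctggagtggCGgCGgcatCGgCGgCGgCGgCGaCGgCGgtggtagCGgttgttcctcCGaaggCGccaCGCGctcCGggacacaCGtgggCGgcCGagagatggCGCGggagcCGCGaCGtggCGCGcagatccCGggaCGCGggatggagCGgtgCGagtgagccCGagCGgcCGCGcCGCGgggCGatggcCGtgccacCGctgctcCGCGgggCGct
Axin2: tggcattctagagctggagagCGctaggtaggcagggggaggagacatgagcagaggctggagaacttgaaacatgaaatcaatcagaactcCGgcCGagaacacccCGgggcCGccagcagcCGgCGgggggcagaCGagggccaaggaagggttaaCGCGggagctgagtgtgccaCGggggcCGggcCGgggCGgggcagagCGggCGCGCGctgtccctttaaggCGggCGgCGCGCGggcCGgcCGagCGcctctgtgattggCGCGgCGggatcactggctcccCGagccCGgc

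All 3 are rich in CG dinucleotides. The Wnt2b promoter holds 43, the Fzd9 promoter 53 and the Axin2 promoter 31, against a median of 7 over 32851 RefSeq promoters of the same length. The genes behind these 3 promoters rose, fell and were not called. High counts are not particular to them. Over the 31 promoters of members examined, counts ran from 4 for a Wnt5b promoter to 58 for Wnt9a, neither gene being called. The core letters bound by the TCF and LEF partners of beta-catenin, CTTTGA on either strand, do not occur in these 3 windows. They occur in 5 of the 31 promoters examined for 28 of the members, or 16.1%, and in 16.0% of all promoters of this length. The count for the members left out a chromosome that the count for all promoters kept. A match of letters is not evidence of binding.

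Among the ligands, Wnt10a, which acts in skin, tooth and hair development, had from 237 to 344 normalised reads in the cKO (median 313), against 119 to 220 in the ctrl (median 157). Every cKO library lay above every ctrl library. The means were 305 ± 40.6 in the cKO and 164 ± 42.7 in the ctrl (SD, n = 6 each), a ratio of 1.86 and a log2 ratio of 0.92 (SE 0.11, limma adjusted p = 0.000317). It was called in each of the 25 other settings tried, with log2 ratios from 0.80 to 0.98. The lowest of these came without ctrl libraries 4 and 5, which held the lowest Wnt10a values of all 12.

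Wnt2b, a ligand known from forebrain midline and eye development, had 91.6 to 104 normalised reads in the cKO (median 96.0), against 37.6 to 62.5 in the ctrl (median 48.2). The groups did not overlap, and the cKO libraries were the tighter group. With means of 97.6 ± 5.35 in the cKO and 48.8 ± 9.89 in the ctrl (SD, n = 6 each), the log2 ratio was 1.01 (SE 0.13, limma adjusted p = 0.000336). It was likewise called in all 25 settings, from 0.95 to 1.07.

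Wnt2, a ligand close to Wnt2b in sequence and known from lung and vascular development, had 72.4 to 94.6 normalised reads in the cKO (median 78.3), against 55.0 to 66.6 in the ctrl (median 59.8). Here too no cKO library reached down to a ctrl library. The log2 ratio of 0.43 (SE 0.11, 95% interval 0.19 to 0.67) did not pass the threshold over all genes (limma adjusted p = 0.132). It passed in 2 of the 25 settings, with the transcript length trend removed (limma adjusted p = 0.0432) and with array weights (0.0451). With array weights, the fit of differences between libraries with and without Y-linked reads stopped before it converged. Groups without overlap were found for 4 of the 35 members, namely Wnt10a, Wnt2b and Wnt2 above and Fzd9 below the ctrl, and for 1.01% of all tested genes, 0.813% above and 0.194% below.

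**Figure D1:**
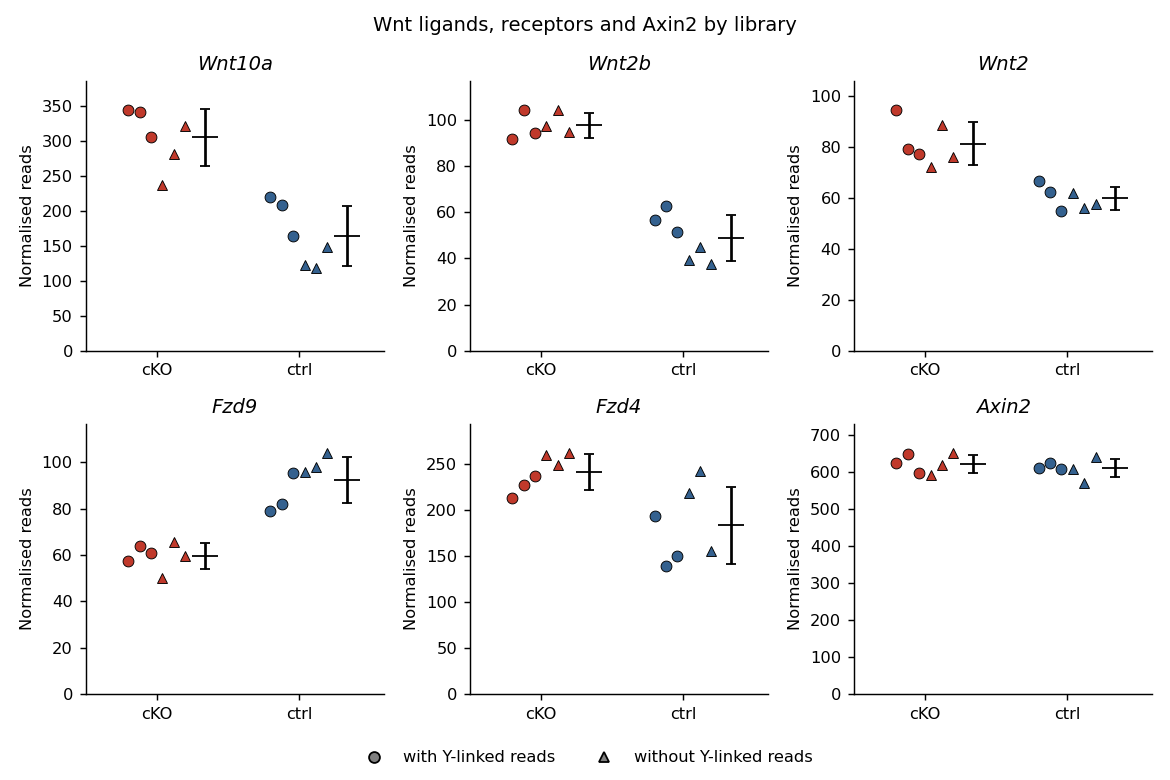
Normalised reads of 3 ligands, 2 Frizzled receptors and Axin2 in each of the 6 cKO (red) and 6 ctrl (blue) libraries; circles are libraries with and triangles libraries without Y-linked reads, and the bar with whiskers is the mean ± SD. Wnt10a, Wnt2b and Wnt2 lie higher and Fzd9 lower in all cKO libraries, Fzd4 overlaps between the groups, and Axin2 spans 593 to 651 in the cKO and 570 to 641 in the ctrl.

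Neighbouring genes were examined because a ligand gene can share reads with a gene that overlaps it. Wnt2b overlaps St7l in the RefSeq annotation, and St7l averaged 359 ± 18.7 normalised reads in the cKO and 372 ± 51.8 in the ctrl (SD, n = 6 each; log2 ratio -0.04, limma adjusted p = 0.860). Wnt6, the ligand gene next to Wnt10a, averaged 34.4 ± 10.6 in the cKO and 36.5 ± 5.99 in the ctrl (log2 ratio -0.12, limma adjusted p = 0.825). On its other side Cdk5r2 had a log2 ratio of -0.12 (limma adjusted p = 0.701). St7, beside Wnt2, had a log2 ratio of -0.21 (limma adjusted p = 0.527). No tested neighbour of the 3 ligands was called.

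Levels of different genes were compared per kilobase of exon. Wnt7b and Wnt7a, which signal to brain endothelium, and Wnt9a were among the most abundant ligands. Wnt7b stood first in both groups, at 159 ± 18.8 normalised reads per kilobase in the cKO and 163 ± 13.6 in the ctrl (SD, n = 6 each), and had 607 to 861 normalised reads in the cKO (median 817) and 727 to 903 in the ctrl (median 789). These ranges overlapped, with a log2 ratio of -0.04 (SE 0.09, limma adjusted p = 0.881). Wnt9a had 319 to 467 normalised reads in the cKO (median 371) and 383 to 478 in the ctrl (median 409), again overlapping, with a log2 ratio of -0.14 (SE 0.10, limma adjusted p = 0.594).

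The order of the ligands differed between the groups through Wnt10a and Wnt2b. Per kilobase, Wnt10a stood at 124 ± 16.5 in the cKO, after Wnt7b and ahead of Wnt9a at 114 ± 16.1 (SD, n = 6), and its range overlapped those of both. In the ctrl it came after Wnt9a, at 66.4 ± 17.3, and did not overlap that ligand at 125 ± 10.4 (SD, n = 6). Wnt10a made up 17.3% to 21.6% of the summed level of the 18 ligands per kilobase in the cKO libraries, against 9.32% to 14.4% in the ctrl libraries. Wnt2b had rank 7 in the cKO and rank 10 in the ctrl, and made up 3.38% to 4.22% of that sum in the cKO and 1.66% to 2.51% in the ctrl. The summed level itself ran from 549 to 660 per kilobase in the cKO and from 507 to 620 in the ctrl. In whole tissue, a change in the number of cells of a type and a change in RNA per cell cannot be told apart.

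**Figure D2:**
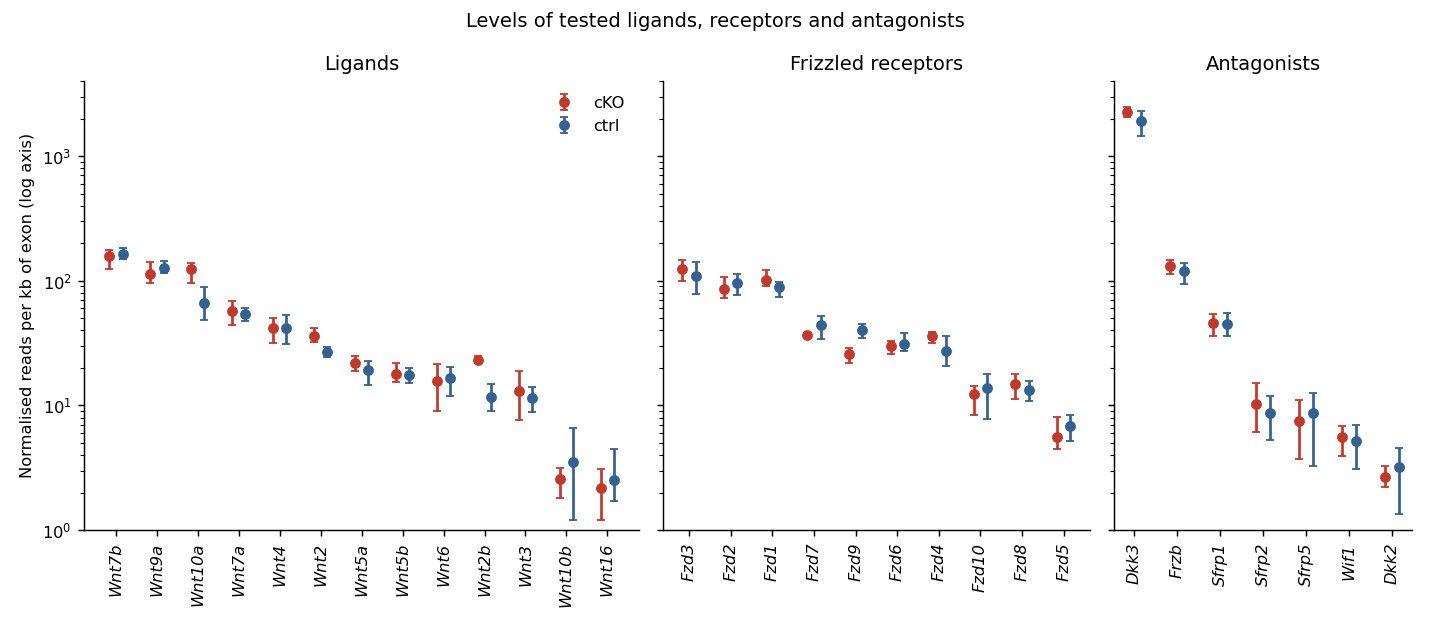
Mean level per kilobase of exon (log axis) of the tested ligands, receptors and antagonists, ordered by the ctrl level; points are cKO (red, left) and ctrl (blue, right) means over 6 libraries and whiskers run from the lowest to the highest library. Dkk3 stands far above the other genes, and Wnt10a in the cKO reaches the level of Wnt9a.

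The remaining 8 tested ligands, Wnt3, Wnt4, Wnt5a, Wnt5b, Wnt6, Wnt7a, Wnt10b and Wnt16, were not called, with log2 ratios from -0.27 for Wnt10b to 0.19 for Wnt5a. Wnt5a, the main ligand of the branches without beta-catenin, averaged 170 ± 16.9 normalised reads in the cKO and 150 ± 24.0 in the ctrl (SD, n = 6 each). Wnt4 averaged 176 normalised reads in either group, with a 95% interval of the log2 ratio from -0.23 to 0.25. The intervals of weakly expressed ligands were wide, as for Wnt10b (-0.98 to 0.44) and Wnt16 (-0.86 to 0.47), so that a change as large as that of Wnt2 is not excluded for them.

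The 5 ligands below the filter, Wnt1, Wnt3a, Wnt8b, Wnt9b and Wnt11, were at or near the limit of detection. Wnt9b averaged 4.58 ± 2.51 normalised reads in the cKO and 2.45 ± 2.30 in the ctrl, from 33 reads in all cKO and 16 in all ctrl libraries. Wnt1 had 23 reads over the cKO and 9 over the ctrl libraries, Wnt11 had 22 over the cKO and 12 over the ctrl libraries, and Wnt3a had 3 over the cKO and 5 over the ctrl libraries. Wnt8b had no read in the cKO and 1 in the ctrl. No difference is given for these genes at this depth.

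Among the Frizzled receptors 1 of 10 was called lower in the cKO and none was called higher. Of all tested genes, limma called 0.0695% lower and 0.764% higher. Fzd9, a receptor known from the hippocampus and deleted in Williams syndrome in humans, had 49.8 to 65.7 normalised reads in the cKO (median 60.2), against 79.0 to 104 in the ctrl (median 95.7). Every cKO library lay below every ctrl library. The means were 59.6 ± 5.61 in the cKO and 92.3 ± 9.75 in the ctrl (SD, n = 6 each), a ratio of 0.645 and a log2 ratio of -0.62 (SE 0.12, limma adjusted p = 0.0117). It was called whichever single library was left out (limma adjusted p from 0.0167 to 0.0401). Without both ctrl libraries 4 and 5 the log2 ratio was -0.60 but the call ended (limma adjusted p = 0.0996). Baz1b, the tested gene beside Fzd9, had a log2 ratio of 0.19 (limma adjusted p = 0.544).

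Fzd4, the receptor of norrin on blood vessels, had 213 to 261 normalised reads in the cKO (median 242), against 139 to 242 in the ctrl (median 174). Ctrl libraries 4 and 5 lay inside the cKO range and the other 4 below it. The log2 ratio of 0.42 (SE 0.12, 95% interval 0.18 to 0.67) had an unadjusted p of 0.00222 in limma and did not pass over all genes. Without ctrl libraries 4 and 5 it was 0.57 and passed (limma adjusted p = 0.0380). The authors' deposited table gives Fzd4 a log2 fold change of 0.41 with an adjusted p of 0.0832.

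Genes that act with Fzd4 or with Wnt7 ligands at the vessel wall were looked at after its value had been seen. The norrin gene Ndp had a log2 ratio of -0.07, Tspan12 of -0.22, Reck of -0.08 and Gpr124, a partner of Reck in Wnt7 signalling, of 0.04 (limma adjusted p from 0.560 to 0.917). The summed level of 10 endothelial markers ran from 5837 to 6476 normalised reads in the cKO and from 5305 to 6631 in the ctrl, and none of the 10 was called. Tmem135, which overlaps Fzd4 in the annotation, had a log2 ratio of 0.11 (limma adjusted p = 0.597).

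Fzd7, a receptor of progenitor and stem cells, had 159 to 173 normalised reads in the cKO (median 169), against 155 to 237 in the ctrl (median 205). The cKO values lay within the lower part of the ctrl range. Its log2 ratio of -0.25 (SE 0.10) had an unadjusted p of 0.0217 and was not called (limma adjusted p = 0.460). Without ctrl libraries 4 and 5, which held the 2 highest values of all 12, it was -0.16.

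By the mean level per kilobase over both groups, Fzd3, which guides axons and acts in planar cell polarity, and Fzd1 stood highest among the receptors, though in the ctrl alone Fzd2 stood above Fzd1 with overlapping ranges. Fzd3 had 1282 to 1882 normalised reads in the cKO (median 1587) and 994 to 1821 in the ctrl (median 1408), with a log2 ratio of 0.19 (SE 0.14, limma adjusted p = 0.615). Fzd1 had 382 to 511 in the cKO (median 415) and 311 to 414 in the ctrl (median 380), with a log2 ratio of 0.19 (SE 0.09, limma adjusted p = 0.516). Both pairs of ranges overlapped. The other 5, Fzd2, Fzd5, Fzd6, Fzd8 and Fzd10, lay between -0.30 for Fzd5 and 0.12 for Fzd8 and were not called. Over the 10 receptors the median log2 ratio was -0.08, with 4 above and 6 below 0. In the order of levels per kilobase, Fzd9 had rank 7 in the cKO and rank 5 in the ctrl, and Fzd4 rank 5 in the cKO and rank 7 in the ctrl, each overlapping its nearest neighbour on the side of higher levels.

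**Figure D3:**
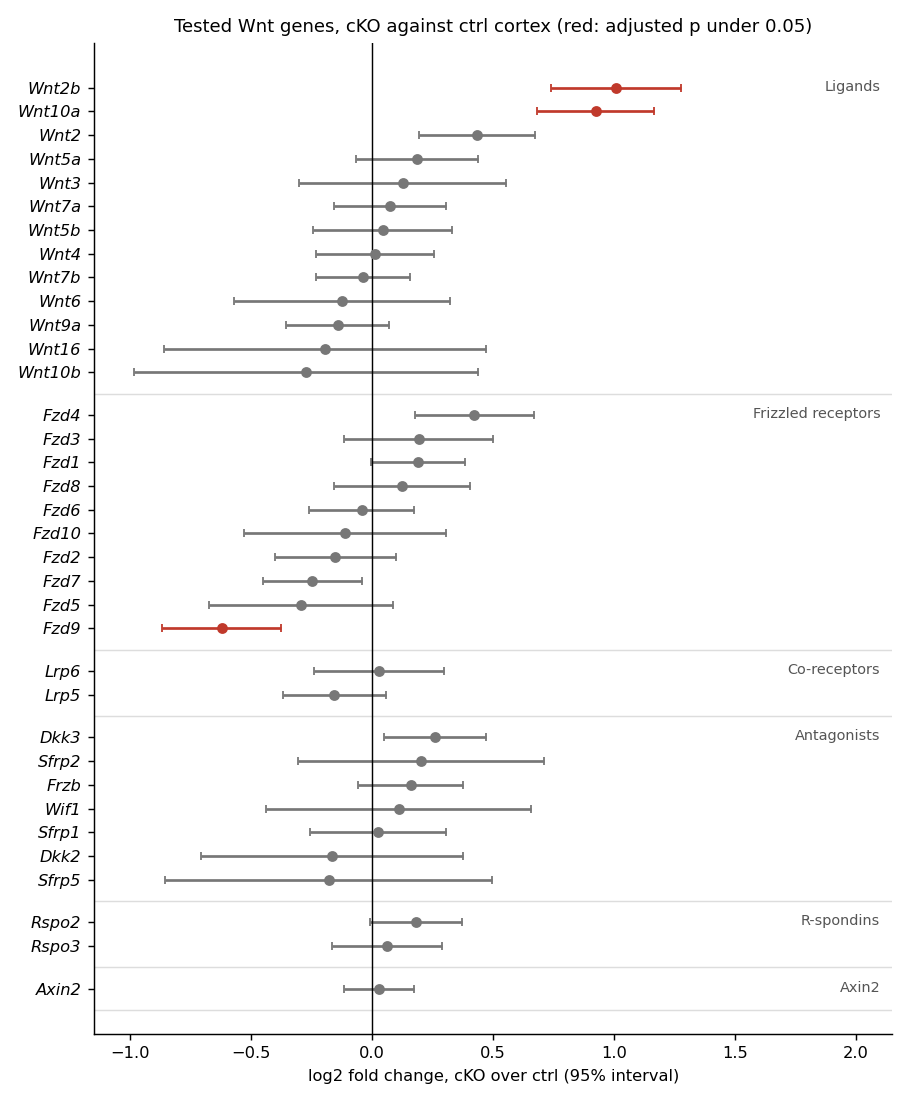
Log2 ratio of cKO over ctrl with its 95% interval for the 35 tested genes, by role; red marks a limma adjusted p under 0.05. Wnt2b and Wnt10a lie to the right of 0 and Fzd9 to the left, while the intervals of Wnt2, Fzd4 and Dkk3 lie above 0 and that of Fzd7 below 0 without passing the adjustment over all genes.

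The co-receptors were not called. Lrp6 had 1100 to 1508 normalised reads in the cKO (median 1322) and 988 to 1552 in the ctrl (median 1337), with a log2 ratio of 0.03 (SE 0.13, limma adjusted p = 0.942). Lrp5 had 197 to 263 in the cKO (median 235) and 218 to 309 in the ctrl (median 258), with a log2 ratio of -0.16 (SE 0.10, limma adjusted p = 0.571). The ranges overlapped for both.

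None of the 7 tested antagonists was called. Dkk3, a divergent member of the Dickkopf family that is abundant in neurons, was the highest of all members at 2270 ± 165 normalised reads per kilobase in the cKO and 1917 ± 331 in the ctrl (SD, n = 6 each). Its values ran from 6880 to 8245 normalised reads in the cKO (median 7613), against 4868 to 7661 in the ctrl (median 6698). The 2 lowest of all 12 values were those of ctrl libraries 4 and 5. The log2 ratio of 0.26 (SE 0.10, limma adjusted p = 0.457) was 0.12 without those libraries, which moves the value by more than 1.5 times.

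Frzb, a secreted frizzled-related protein, had 368 to 479 normalised reads in the cKO (median 427) and 306 to 447 in the ctrl (median 397), with a log2 ratio of 0.16 (SE 0.10, limma adjusted p = 0.571). The groups overlapped. Its 2 lowest values were those of ctrl libraries 4 and 5, and the log2 ratio was 0.02 without both and 0.096 without ctrl library 4. Sfrp1, Sfrp2, Sfrp5, Dkk2 and Wif1 lay between -0.18 for Sfrp5 and 0.20 for Sfrp2, and all but Sfrp1 averaged 22.1 normalised reads or fewer in either group. Dkk1, the antagonist best known for blocking Lrp6, was listed at 0 in all 12 libraries, which allows up to 3 reads, or 1.98 to 5.64 normalised reads, in any of them.

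The R-spondins were not called. Rspo2 had 298 to 378 normalised reads in the cKO (median 335) and 254 to 349 in the ctrl (median 295), with a log2 ratio of 0.18 (SE 0.09, limma adjusted p = 0.520). Rspo3 had 174 to 260 in the cKO (median 214) and 169 to 232 in the ctrl (median 206), with a log2 ratio of 0.06 (SE 0.11, limma adjusted p = 0.826). Both groups of values overlapped.

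Axin2, the feedback inhibitor induced by beta-catenin, was among the steadiest of the members. It had 593 to 651 normalised reads in the cKO (median 621) and 570 to 641 in the ctrl (median 610), and the groups overlapped. The means were 622 ± 24.6 in the cKO and 610 ± 23.5 in the ctrl (SD, n = 6 each), a log2 ratio of 0.03 (SE 0.07, limma adjusted p = 0.888). The 95% interval of -0.12 to 0.17 leaves out shifts of the size seen for Wnt2 or Fzd9. Its coefficient of variation was 3.95% in the cKO and 3.84% in the ctrl, where the median of the 35 members was 13.8% in the cKO and 16.4% in the ctrl.

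Other genes of the pathway were then compared, from 7 lists that together hold 146 genes besides the members, some of them in more than 1 list, of which 137 were tested. None was called by limma or edgeR, and DESeq2 on whole reads called 1, Ccnd1. Of all tested genes, limma called 0.834%, edgeR 0.827% and DESeq2 1.17%. At an unadjusted p under 0.05, limma found 13, as did edgeR and DESeq2, with 9 higher and 4 lower by limma, where 9.73% of all genes reached that level. The median log2 ratios of the lists were 0.05 for other secreted factors (10 tested), -0.0021 for ligand secretion (10), -0.05 for receptor partners (19), 0.02 for the cytoplasmic cascade (33), -0.0037 for nuclear effectors (20), 0.09 for the planar cell polarity and calcium branch (33) and -0.04 for beta-catenin targets (22).

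Among beta-catenin targets, Ccnd1, which encodes cyclin D1, averaged 1251 ± 112 normalised reads in the cKO and 1023 ± 116 in the ctrl (SD, n = 6 each; log2 ratio 0.29, limma adjusted p = 0.168). Sox9, a glial transcription factor, averaged 564 ± 99.8 in the cKO and 704 ± 85.6 in the ctrl (log2 ratio -0.33, limma adjusted p = 0.448). Lgr5, an R-spondin receptor and target, averaged 26.8 in the cKO and 39.1 in the ctrl (log2 ratio -0.54, limma adjusted p = 0.457). The direction of these 3 targets was mixed.

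Elsewhere in the pathway, Sostdc1, a secreted inhibitor, averaged 18.1 ± 5.33 normalised reads in the cKO and 9.14 ± 3.33 in the ctrl (SD, n = 6 each; log2 ratio 0.93, limma adjusted p = 0.321). Prickle3, of the planar cell polarity branch, had a log2 ratio of 0.63 (limma adjusted p = 0.245) and Plcb4, a phospholipase, of 0.26 (0.477). Lrp4, a receptor that also binds Wnt inhibitors, had 0.30 (limma adjusted p = 0.457), and 0.48 without ctrl libraries 4 and 5, where it passed (0.0420). Igfbp4, which inhibits Wnt signalling besides binding insulin-like growth factors, had 0.21, the tankyrase Tnks2 0.19, and the repressor Tcf7l1 -0.40 (limma adjusted p from 0.476 to 0.503).

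Kremen2, a receptor for Dickkopf proteins, did not reach the filter, with means of 3.98 ± 2.41 normalised reads in the cKO and 13.9 ± 5.35 in the ctrl (SD, n = 6 each). With the filter lowered to a mean of 1 it was called lower (log2 ratio -1.74, limma adjusted p = 0.0411). That level in the cKO is within the 1.98 to 5.64 normalised reads worth 3 reads. It is named because that setting called it, after its values had been seen.

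**Figure D4:**
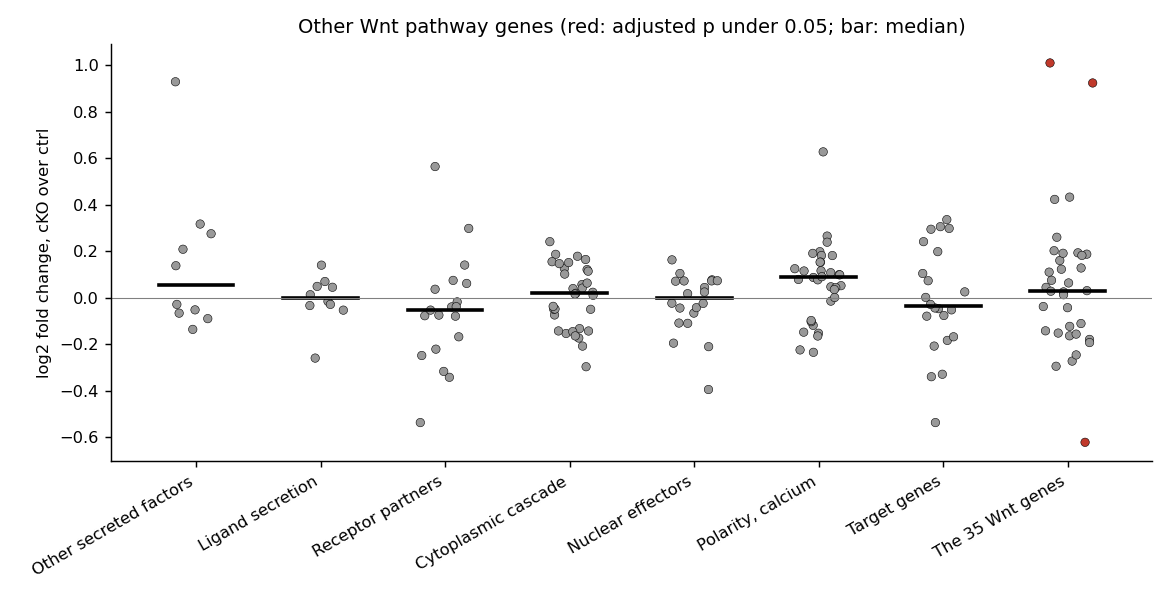
Log2 ratio of cKO over ctrl for each tested gene of 7 other Wnt pathway lists and, at the right, the 35 Wnt genes; bars are medians and red marks a limma adjusted p under 0.05. List medians lie between -0.05 and 0.09, and the called genes are Wnt2b, Wnt10a and Fzd9.

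The genotype effect was also computed within each set of libraries, to give its size in both. Wnt10a had log2 ratios of 0.75 (SE 0.15) in libraries 1 to 3, which had Y-linked reads, and 1.10 (SE 0.15) in libraries 4 to 6, which had none or few, and Fzd9 of -0.48 and -0.76 (SE 0.16 each). Wnt2 had 0.44 and 0.42, and Fzd4 0.50 and 0.35. Wnt2b had 0.75 and 1.26 (SE 0.16 each). The sign of each of these 5 genes was the same in both sets, though Wnt2 and Fzd4 were not called in the test over all libraries. For Wnt10a, Wnt2b, Wnt2 and Fzd9 the shared sign was fixed in advance, because their groups do not overlap in any library. It is therefore no separate evidence for them. No member had a difference between the sets that passed over all genes, nor did any other gene (limma). With array weights, a fit that stopped before it converged, 9 members and 32.4% of all genes passed. At an unadjusted p under 0.05 the sets differed for 3 members, Wnt2b, Frzb and Dkk3 (8.57% of the 35), close to the 8.77% of all genes.

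For Frzb and Dkk3 the difference lay in the libraries without Y-linked reads, where ctrl libraries 4 and 5 belong. Frzb had log2 ratios of -0.10 among libraries with and 0.42 among those without Y-linked reads (difference -0.52, SE 0.16, limma adjusted p = 0.562). Dkk3 had 0.06 and 0.46 (difference -0.40, SE 0.17, limma adjusted p = 0.562). The part of ctrl libraries 4 and 5 in these differences was not tested.

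The term for Y-linked reads itself was read after the values had been seen. Wnt10a was higher by 0.42 on the log2 scale in libraries with than without Y-linked reads (SE 0.11, limma adjusted p = 0.286). An unadjusted p under 0.05 was found for 4 members, Wnt10a, Wnt4, Fzd4 and Fzd7 (11.4% of the 35), close to the 11.7% of all genes. No member was called for this term (limma), where 0.0764% of all genes were.

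**Figure D5:**
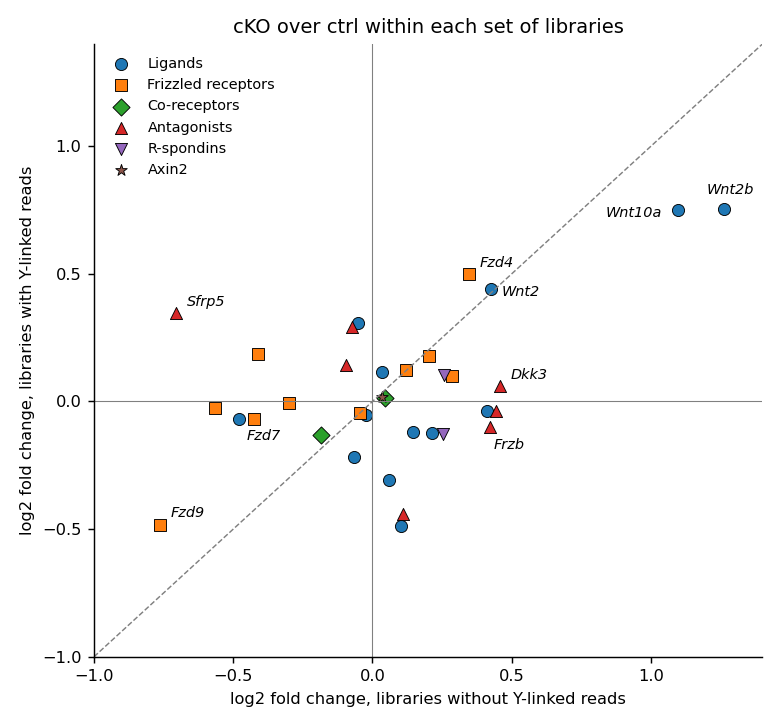
Log2 ratio of cKO over ctrl in the 6 libraries with Y-linked reads (vertical) against the 6 without (horizontal) for the 35 tested genes, by role; the dashed line marks equal changes. Wnt10a, Wnt2b, Wnt2 and Fzd4 lie above 0 and Fzd9 below 0 on both axes, which for all but Fzd4 was set by groups that do not overlap.

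Markers of the cell types and neighbouring regions that cortex tissue can hold were set beside these results. Summed levels overlapped between the groups for all 13 marker lists. Meninges and perivascular fibroblasts are known sources of Wnt ligands. The sum of their 12 markers ran from 8082 to 13239 normalised reads in the cKO and from 11240 to 14109 in the ctrl. Most of that sum was Ptgds, with means of 7898 in the cKO and 9565 in the ctrl. The median log2 ratio of these markers was -0.17, with mixed directions. At an unadjusted p under 0.05 in limma, 2 of the 12 were higher (Igf2 and Col3a1) and 2 lower (Ptgds and Slc22a6). Of all tested genes, 4.61% were higher and 5.13% lower at that level. For the hippocampus, where Fzd9 is known to be expressed, the sum of 12 markers ran from 3942 to 4968 in the cKO and from 3751 to 4820 in the ctrl. Of these markers 9 were tested, as Dsp, Tdo2 and Iyd were under the filter. At an unadjusted p under 0.05 in limma, 3 were higher (Lct, Neurod1 and Wfs1) and 0 lower. Markers were called in 2 lists, 1 in each, Aqp4 among astrocyte genes (log2 ratio 0.53, limma adjusted p = 0.00973) and Lct among hippocampal genes (1.24, 0.00149). Of all tested genes, limma called 0.834%. No marker was at 0 in every library, and the part of cell composition in the changes of Wnt10a, Wnt2b and Fzd9 was not tested.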

How the data were processed

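Total RNA of mouse cerebral cortex (6 cKO and 6 ctrl libraries at 8 weeks) was depleted of ribosomal RNA and made into directional libraries, per the labels' protocols. Tools named in the submitters' processing notes, with no role or version, are STAR, Bowtie, Trim Galore and bedtools, and the build is mm9. The strand setting of the counts was not given in the sources used here. Overlapping genes may therefore share reads. The deposited table of 34193 genes holds a signal in normalised reads, scaled by the authors with DESeq2 per the file headers. In each library, values above 0 were whole multiples of 1 step (100%, tolerance 0.01 reads), and edgeR on the whole reads so obtained called 119 genes. The authors' own comparison stands in the deposited table as log2 fold changes, standard errors, a Wald score, p-values and adjusted p-values.

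Columns carry a genotype and a number. Y-linked reads (4 genes, sum above 100) disagree with the labelled sex of the same numbers, so columns were tied to genotypes only. The labels number biological replicates and name no animals, and p-values measure the spread among these samples. Limits set by counts of 0 cover counting error only. The numbers were not used to pair samples.

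The main test was limma 3.58.1 (R 4.3.3) with its trend option, on log2(value + 1), a scale that can understate changes of weakly expressed genes. It was two-sided, held genotype and the Y-linked split, and took in the 14397 genes averaging 10 normalised reads or more. Calls were made at a Benjamini-Hochberg adjusted p under 0.05. edgeR 4.0.16 and DESeq2 1.42.0 were run on the whole reads. Exon lengths came from GENCODE vM21 (GRCm38) for 98.2% of tested genes. The limma and edgeR fits were tested on simulated data without a Y-linked effect, and the DESeq2 fit was not. Genes and lists were chosen with earlier results of these data known. Values by library are given for called members, members with an unadjusted p under 0.05, Axin2 and the 2 most abundant members per role. Other pathway genes are named where called, or for the 2 smallest unadjusted p under 0.05 per list. Alternatives were the pseudocount, filter, scaling, tool, covariate, array weights, length trend and libraries left out.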

Additional observations from a re-analysis of the deposited data

How the results depend on the processing

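Wnt10a, Wnt2b and Fzd9 kept their direction under all 25 alternatives, and 3 members were called whichever single library was left out (range 3 to 3). All genes called numbered 120, 97 to 123 with 1 library left out, and 58 with a minimum mean of 50, where fewer genes were tested (12299). Other pathway genes called numbered 0, 0 to 0 with 1 library left out, and 1 with the minimum mean of 1 (Kremen2), with DESeq2 (Ccnd1) and without ctrl libraries 4 and 5 (Lrp4). The Nsd1 log2 fold change ran from -0.45 to -0.29 with 1 library left out, and was called at -0.47 with the transcript length trend removed (limma adjusted p = 0.00889). The cause of these shifts was not tested.

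Members whose effect differed between the sets of libraries numbered 0, and 0 to 0 with 1 library left out, but 9 with array weights, which then called 4667 genes, 32.4% of those tested, and whose fit stopped before it converged. The 32 uncalled members changed sign in 30 of 789 comparisons. Scaling by TMM or quantiles moved the median of all genes by less than 0.01.

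With the column number as a replicate block in place of the Y-linked term, limma called 118 genes and the same 3 members, Wnt10a (adjusted p = 0.000702), Wnt2b (0.00309) and Fzd9 (0.0360), and Nsd1 stayed at -0.36 (0.0926). Deviations of same-numbered columns correlated at 0.0911 to 0.497 over 6 numbers, of which 2, numbers 4 and 5, were under 0.1. The cKO columns 1, 2, 3 and 6 and the ctrl columns 2, 3 and 6 correlated best with their own number, and the others did not. The labels name no pairs, and the numbers were not taken to pair the samples in the main test. Ligands near 10 normalised reads are limited by depth.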
